A study of Mus musculus with 16 samples.

Results

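CCR2+ and MHCII-high macrophages, populations of the mouse heart that both carry MHC class II, were compared. The comparison was chosen by the sample titles alone and rests on 8 of the 16 arrays of the series, 4 per population. Both came from hearts of untreated C57BL/6 mice and shared a gate of live cells positive for CD45, MerTK and CD64 and negative for Ly6c. The CCR2+ gate took cells high for both CCR2 and MHCII. The gate of the other population took cells without CCR2, high for MHCII and low for CD11c. The other 8 arrays, of MHCII-low heart macrophages (negative for CCR2 and CD11c) and of blood monocytes sorted as Ly6c-high, took part in the fit and are given below as levels. The labels used here name no age or sex, and do not say whether the replicates were separate mice, so the p-values measure the spread between these samples, which may be technical.

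CCR2 is the chemokine receptor by which monocytes leave the bone marrow and enter tissue along gradients of CCL2. Heart macrophages that carry it are known to be renewed from blood monocytes, while CCR2-negative heart macrophages are largely seeded before or around birth and maintain themselves by division. MHC class II molecules present peptides to helper T cells, and both populations were sorted for a high level of them. Resident macrophages of the heart clear dying cells and cell debris, make complement proteins and handle iron from engulfed red cells. Monocyte-derived cells are known for matrix, protease and inflammatory transcripts.

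RNA levels are given as the log2 of the scanner's processed signal minus the 75th percentile of the same array, so that 0 is the level of that percentile and 1 unit is a doubling. A probe reports its own gene, and levels of different genes are not compared. Differences are CCR2+ minus MHCII-high, with their standard error, from limma fitted across 22040 genes and unnamed transcripts with 4 arrays per group. P-values are adjusted by Benjamini-Hochberg over all of these, and "higher", "lower", "rose" and "fell" are used for an adjusted p under 0.05. Where no array of a population had a gene's probe well above background, the difference is printed as "at least N-fold", with the dim population set at the lowest signal called well above background or at its own signal where that was greater. The adjusted p beside such a bound is that of the fitted difference. Replicates with the same number shared a slide.

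Array quality overlapped between the populations. Between 61.7% and 68.3% of the spots on CCR2+ arrays and between 58.1% and 69.3% on MHCII-high arrays were well above background (exact permutation test, two-sided p = 0.629). The 75th percentile of the signal ran from 1380 to 1670 and from 941 to 1660 (exact permutation p = 0.343, where 0.0286 is the smallest that 4 against 4 allows). All 10 macrophage markers were measured, none was called, and their summed signal was 333 to 451 times the 75th percentile on CCR2+ arrays and 406 to 577 times on MHCII-high arrays. Adgre1, which encodes the macrophage antigen F4/80, had levels from 3.95 to 4.27 in CCR2+ and from 4.08 to 4.56 in MHCII-high macrophages.

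The transcripts of the sort gate were read first, as a check of the labels. Ccr2 had levels of 0.85, 0.63, 0.42 and 0.55 in CCR2+ replicates 1 to 4 and of -3.30, -2.85, -3.97 and -2.87 in MHCII-high replicates 1 to 4. The groups did not overlap, and the fitted difference was 3.86 ± 0.32 (14.5-fold, adjusted p = 2.11e-05). The MHC class II chain genes, for which both populations were gated high, had differences within their error: the difference was -0.22 ± 0.26 for H2-Aa (adjusted p = 0.916), 0.01 ± 0.25 for H2-Ab1 (adjusted p = 0.999) and -0.08 ± 0.23 for H2-Eb1 (adjusted p = 0.986). Fcgr1, which encodes CD64, differed by 0.06 ± 0.18 (adjusted p = 0.986) and Mertk by -0.54 ± 0.41 (adjusted p = 0.797). Itgax, which encodes CD11c and was gated low in MHCII-high macrophages only, had a difference of 1.85 ± 0.55 that missed the threshold (adjusted p = 0.161), and passed it with the slide as a block (adjusted p = 0.0491). Although both gates excluded Ly6c, Ly6c1 was higher in CCR2+ macrophages by 1.32 ± 0.28 (adjusted p = 0.031), although its probe may bind transcripts of the close copy Ly6c2 as well. That call ended when any 1 of 5 arrays was left out (CCR2+ 1 and 2, MHCII-high 2, 3 and 4), and adjusted p reached 0.155 over the alternatives.

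Of 22040 genes tested, those of the gate included, 276 differed, which is 1.25%. Of these, 138 were higher in CCR2+ macrophages (0.626%) and 138 were lower (0.626%). The median difference was -0.03 over all genes, 1.85 over the higher ones and -1.56 over the lower ones. All 276 had 1 sign on 4 of 4 slides, and 273 had no overlap between the groups, against 7.81% of all genes tested. In sorted bulk samples fewer cells with an RNA and less of it per cell cannot be told apart. Some called genes were well above background on only part of the dimmer group's arrays: Ccr2, Ear12, Spp1, Adam8, Chil3, P2ry14, C6, Timd4 and Vsig4 on 3 of 4, Dpp4 and Tnfrsf17 on 2 of 4, and Cd209a, E2f8, Kif22 and Pimreg on 1 of 4. With the slide as a block the fit called 552 genes (2.5%), 272 of them shared with the 276. Leaving out CCR2+ replicate 2 gave the lowest count, 155, while omitting CCR2+ replicate 1 gave 165 and omitting replicate 3 of the MHCII-high group gave 170.

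**Figure D1:**
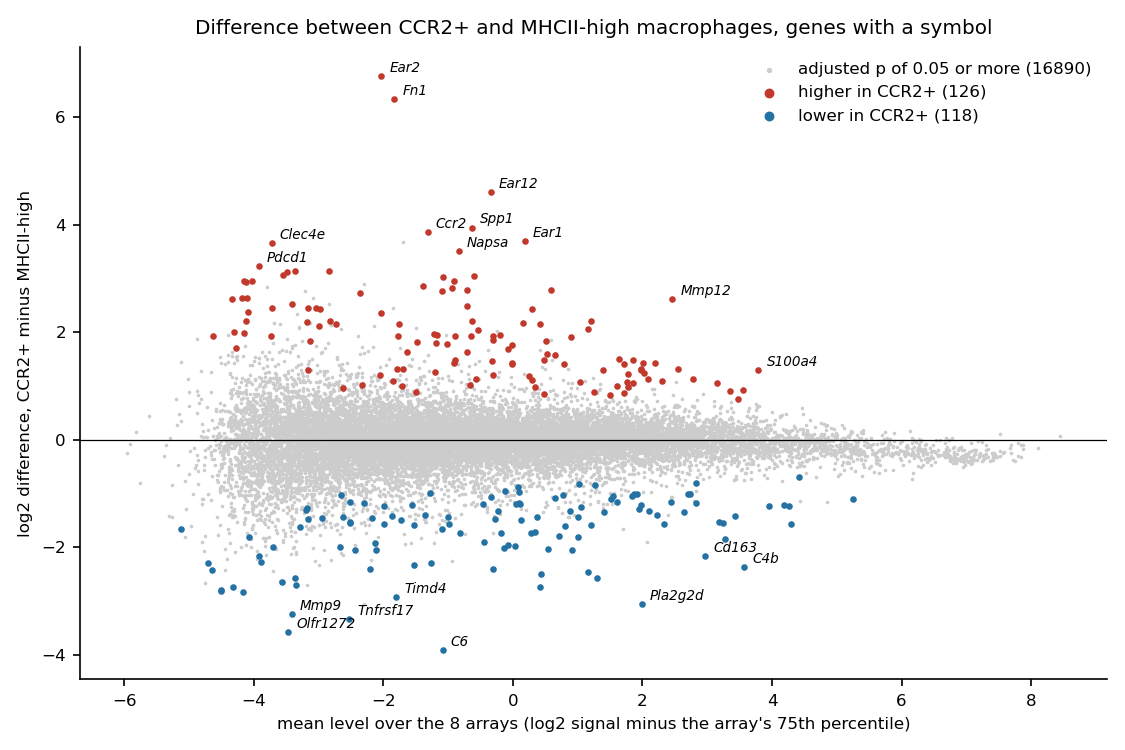
Each point is 1 gene with a symbol. The horizontal axis is its mean level over the 8 arrays (log2 signal minus the array's 75th percentile) and the vertical axis the fitted log2 difference, CCR2+ minus MHCII-high. Red points (126) were higher and blue points (118) lower in CCR2+ macrophages at an adjusted p under 0.05. Calls lie at all levels. For a gene that is dim in 1 population the plotted difference is the fitted one, not the bound given in the text.

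The leading genes on the CCR2+ side were the Ear ribonucleases, a rodent family of small secreted RNases related to the eosinophil granule proteins. Ear2 had levels of 1.52, 1.44, 1.45 and 1.01 in the CCR2+ replicates and lay between -5.71 and -4.87 in the MHCII-high replicates, none of them well above background. It was at least 31.6-fold higher (adjusted p = 4.01e-10). Ear12 had levels from 1.72 to 2.22 against -3.68 to -1.81, a difference of 4.61 ± 0.39 (24.4-fold, adjusted p = 2.11e-05). Ear1 ran from 1.74 to 2.30 against -2.37 to -1.05 and differed by 3.70 ± 0.31 (adjusted p = 2.11e-05). Further members were higher by a smaller step, Ear10 by 1.69 ± 0.27 (adjusted p = 0.00446) and Rnase2a by 1.94 ± 0.25 (adjusted p = 0.00103). Rnase4, a relative made together with angiogenin, was lower instead (-1.17 ± 0.26, adjusted p = 0.0363, and up to 0.184 over the alternatives, with the call ended by leaving out any 1 of the 8 arrays). Of 9 family members tested 5 were thus higher and 1 lower, with a median difference of 1.69 against -0.03 over all genes.

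Ear1, Ear2 and Ear10 lie near each other on chromosome 14 and are near-copies, so a probe of 1 gene may take transcripts of another, and their values are not independent. The 60-base probes of Ear1 and Ear12 share the run TACCCAATGCAGATACCAA of 19 bases, and those of Ear10 and Ear12 share the run TGGAGTACTACACAGTTGCCTGT of 23 bases. The Ear2 probe shares no more than 5 bases in a row with the others. Probes were compared only with each other, not with the transcripts of the related genes. Short shared runs therefore do not show that a probe binds its own gene alone. The bases upstream of the genes are shown because they too are near-copies: the 250 bases before the annotated start of Ear2 and Ear1 are identical in 246 of 248 aligned positions (99.19%), and those of Ear2 and Ear10 in 231 of 246 (93.9%). They are taken from RefSeq on GRCm38.p6, 5′ to 3′, at chr14:44102404-44102653 on the plus strand for Ear2, chr14:43819640-43819889 on the minus strand for Ear1 and chr14:43923597-43923846 on the minus strand for Ear10. Capitals mark the bases that differ from Ear2 in the alignment.
Ear2: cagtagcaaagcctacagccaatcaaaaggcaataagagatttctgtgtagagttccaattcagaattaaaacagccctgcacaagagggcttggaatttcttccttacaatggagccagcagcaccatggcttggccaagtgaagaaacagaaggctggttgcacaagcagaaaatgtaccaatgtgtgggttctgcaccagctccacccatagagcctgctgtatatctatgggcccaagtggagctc
Ear1: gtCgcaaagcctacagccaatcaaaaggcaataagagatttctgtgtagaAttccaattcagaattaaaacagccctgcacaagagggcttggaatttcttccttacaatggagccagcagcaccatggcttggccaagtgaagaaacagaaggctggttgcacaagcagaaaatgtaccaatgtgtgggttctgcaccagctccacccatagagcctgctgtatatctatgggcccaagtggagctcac
Ear10: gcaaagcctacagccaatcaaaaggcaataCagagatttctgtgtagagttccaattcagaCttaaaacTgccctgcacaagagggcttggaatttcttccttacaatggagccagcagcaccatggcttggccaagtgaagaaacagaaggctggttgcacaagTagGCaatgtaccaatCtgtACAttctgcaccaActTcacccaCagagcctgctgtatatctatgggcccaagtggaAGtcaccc

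**Figure D2:**
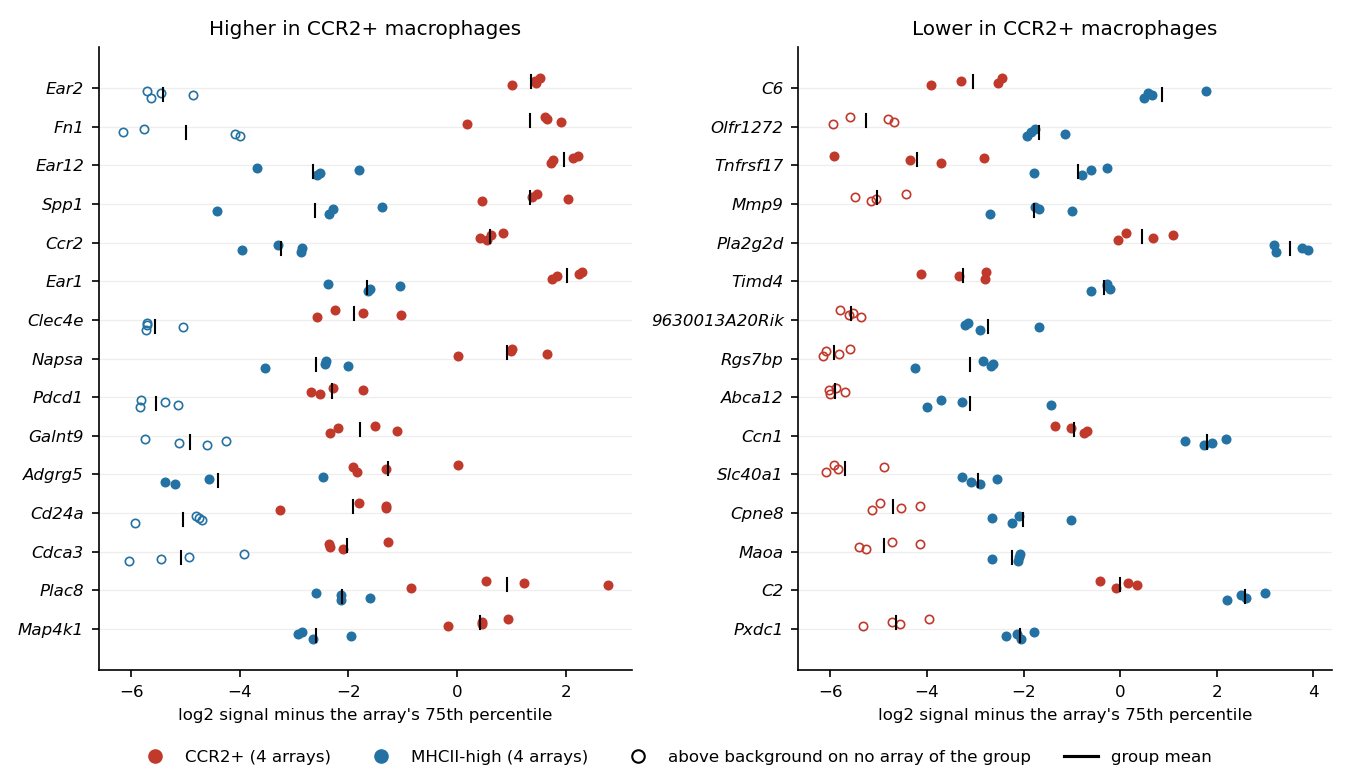
Level of the 15 genes with the largest positive and the 15 with the largest negative fitted difference, on each of the 8 arrays (log2 signal minus the array's 75th percentile). Red points are CCR2+ arrays, blue points MHCII-high arrays, open points a population in which no array was well above background, and black bars the group means. In all 30 genes every red point lies on the same side of every blue point.

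Several secreted matrix proteins and proteases that cut them were among the genes that rose. Fn1, fibronectin, had levels of 1.61, 1.65, 1.91 and 0.18 in the CCR2+ replicates and was not well above background in any MHCII-high replicate, at least 31.2-fold higher (adjusted p = 2.11e-05). Spp1, osteopontin, a secreted matrix protein that binds integrins and CD44, had levels of 1.47, 1.39, 2.04 and 0.46 against -1.38, -2.28, -4.43 and -2.35. The groups stood apart by 3.95 ± 0.51 (15.4-fold, adjusted p = 0.00103, or 0.0606 with the block on these 8 arrays alone). Mmp12, macrophage elastase, was abundant in both populations and still separated them, at 4.21, 3.81, 3.91 and 3.15 against 1.27, 0.94, 1.4 and 0.99 (2.62 ± 0.42, 6.16-fold, adjusted p = 0.00426). Adam8, a membrane protease that sheds surface proteins, rose by 2.95 ± 0.55 (adjusted p = 0.0145, or 0.0514 without CCR2+ replicate 2), and Plaur, the receptor that focuses urokinase at the cell surface, was at least 2.80-fold higher (adjusted p = 0.00469). Mmp9, gelatinase B, went the other way: its levels were -1.77, -1.68, -1.0 and -2.70 in MHCII-high macrophages and were not above background in CCR2+ macrophages, at least 4.16-fold lower (adjusted p = 0.000931, but 0.0652 with normexp background correction). Of 23 matrix genes and proteases tested, 5 were higher and 1 lower, and their median difference was 0.17. With the block 6 were higher and 2 lower.

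The stretch upstream of Spp1 and Mmp12 holds motifs of ETS factors, the family of PU.1, the master regulator of macrophage genes. The 250 bases before their starts are printed from RefSeq on GRCm38.p6, at chr5:104434861-104435110 and chr9:7344147-7344396, both on the plus strand, for 1 of 2 listed starts of each gene. Timd4, the receptor on the opposite side of the comparison, is set beside them (chr11:46810549-46810798, plus strand). These windows are examples, and most windows of the called genes hold no PU.1 motif, as counted below. The window of Cd163, also lower in CCR2+ macrophages, was searched too and held neither motif. Capitals mark matches to GAGGAAG (PU.1) and to GGAAGT (the ETS core), which overlap in Spp1, and to their reverse complements.
Spp1: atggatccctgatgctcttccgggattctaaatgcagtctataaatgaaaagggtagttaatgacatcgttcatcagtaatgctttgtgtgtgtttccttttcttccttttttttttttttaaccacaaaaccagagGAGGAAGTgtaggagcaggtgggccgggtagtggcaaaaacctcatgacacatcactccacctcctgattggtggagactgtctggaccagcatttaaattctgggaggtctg
Mmp12: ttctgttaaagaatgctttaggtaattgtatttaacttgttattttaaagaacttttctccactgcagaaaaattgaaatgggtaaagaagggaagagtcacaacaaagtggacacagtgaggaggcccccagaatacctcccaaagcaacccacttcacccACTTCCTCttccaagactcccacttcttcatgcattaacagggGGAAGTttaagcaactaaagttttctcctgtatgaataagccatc
Timd4: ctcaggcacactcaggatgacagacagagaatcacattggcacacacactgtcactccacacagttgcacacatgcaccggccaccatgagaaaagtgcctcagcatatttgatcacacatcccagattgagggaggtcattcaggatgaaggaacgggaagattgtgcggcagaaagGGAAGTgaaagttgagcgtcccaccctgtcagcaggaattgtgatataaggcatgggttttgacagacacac
Over all genes called higher that matched a RefSeq window, GAGGAAG was found on either strand in 21 of 131 windows (16.03%), against 8.41% of the windows of genes called lower and 1786 of 16176 windows of all genes tested (11.04%). GGAAGT was found in 26.0%, 23.4% and 21.8% in the same order. A motif of interferon regulatory factors, GAAA repeated after any 2 bases, was in 7.63%, 1.87% and 2.89%. The GC box GGGCGG was in 36.6%, 40.2% and 48.0%. The CRE core TGACGT was in 1.53%, 4.67% and 8.46%, and the AP-1 motif TGANTCA in 9.16%, 6.54% and 5.48%. These were among 12 motifs searched. The shares were not tested, and they count letters in windows of 250 bases, not binding.

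On the MHCII-high side complement was the group with the most calls after the resident genes, a list with which it shares the called Fcna and Vsig4. Complement proteins tag dying cells and microbes for uptake and, at the end of the cascade, pierce membranes. C6, a part of that membrane pore, had levels of 1.77, 0.57, 0.66 and 0.49 in MHCII-high replicates and of -2.45, -3.29, -2.52 and -3.92 in CCR2+ replicates, the largest fitted fall among the called genes with a symbol (-3.92 ± 0.50, 15.1-fold, adjusted p = 0.000931). C4b and C2, which together form the convertase of the classical and lectin routes, were lower by -2.37 ± 0.33 (adjusted p = 0.00143) and -2.58 ± 0.27 (adjusted p = 0.000126). For C4b the levels were 2.73, 2.31, 2.71 and 1.81 against 5.04, 4.77, 5.28 and 3.94, high in both populations. The lectin Fcna, ficolin A, fell by 2.46 on the log2 scale (adjusted p = 0.00114), as did Vsig4, a receptor for C3 fragments (-2.34 ± 0.47, adjusted p = 0.0221). The Vsig4 call ended when any 1 of 5 arrays was left out (CCR2+ 1 and 2, MHCII-high 1, 2 and 3), with an adjusted p of up to 0.098. Of 19 complement genes tested 6 were lower and 0 higher (also 6 and 0 with the block), with a median of -0.35. The 13 others included C1qa (-0.50 ± 0.25, adjusted p = 0.543) and C3 (0.72 ± 0.27, adjusted p = 0.307).

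Some of the receptors by which resident macrophages bind dying cells and scavenge proteins were lower in CCR2+ macrophages. Timd4, which binds phosphatidylserine on apoptotic cells, had levels of -2.78, -4.12, -3.33 and -2.80 against -0.28, -0.27, -0.21 and -0.60 (-2.92 ± 0.25, 7.57-fold, adjusted p = 2.11e-05). Cd163, the scavenger of haemoglobin bound to haptoglobin, had levels of 2.25, 1.46, 2.07 and 1.78 against 4.04, 4.06, 4.37 and 3.73. It was well expressed in both and 4.46-fold lower in CCR2+ macrophages (-2.16 ± 0.22, adjusted p = 8.43e-05). Folr2, a folate receptor of resident macrophages (-1.84 ± 0.33, adjusted p = 0.00911), and Gas6, the bridge between dying cells and MerTK (-1.22 ± 0.21, adjusted p = 0.00757), fell by less. Lyve1, a hyaluronan receptor (-1.98 ± 0.42, adjusted p = 0.0275), and the scavenger Stab1 (-1.21 ± 0.25, adjusted p = 0.0261) passed only until 1 of 5 or 6 of the arrays was left out, where adjusted p reached 0.133 and 0.0955. Mrc1, the mannose receptor, was at -0.71 ± 0.30 (adjusted p = 0.418). Of 22 resident macrophage genes tested, 12 were lower and 0 higher, with a median of -1.27. With the block 13 were lower: Igf1 and the selenium carrier Selenop (-0.55 ± 0.18, adjusted p = 0.237 without and 0.0344 with it) were gained, and the endothelin receptor Ednrb (-1.90 ± 0.44, 0.0489 and 0.0609) was lost. Its genes come from studies of heart macrophages that may include the present samples, so its direction is not independent evidence.

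The efferocytosis and scavenger list was split. Of 23 members 4 were lower (Timd4, Cd163, Gas6 and Stab1) and 2 higher, both CD300 receptors that sense lipids of dying cells: Cd300lb (1.59 ± 0.25, adjusted p = 0.00426) and Cd300lf (1.47 ± 0.31, adjusted p = 0.0291). Cd300lf had levels of 0.79, 0.34, 0.76 and -0.23 in CCR2+ and of -0.83, -1.06, -1.05 and -1.27 in MHCII-high replicates. Its call ended when any 1 of 7 arrays was left out (adjusted p up to 0.104), and its other probes differed by 0.08 and 2.37. The call of Cd300lb held under every alternative. With the block the scavenger Msr1 (-0.89 ± 0.22, adjusted p = 0.0736 without and 0.00515 with it) was called lower too, giving 5 lower and 2 higher. Others that did not pass were Mertk, Marco, Cd36, Axl and Stab2, and the median of the list was -0.06. The alternative activation list was split as well, though not all of its members are genes that interleukin-4 raises. Of 12 members 3 were higher (Ear2, Chil3 and Ccl17) and 4 lower (Cd163, Ccl24, Folr2 and Stab1). Chil3, a chitinase-like protein, was the least even of them, with CCR2+ levels of -0.55, 1.00, 1.54 and -1.83 (2.85 ± 0.66, adjusted p = 0.0473, 0.059 with the block and up to 0.179 over the alternatives). With the block the list had 2 higher and 4 lower.

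Of 18 genes typical of Ly6c-high monocytes 8 were higher and 1 lower in CCR2+ macrophages, with a median of 1.20, or 0.96 with dim genes at their bound. The same caution on its origin applies to this list, and Ccr2, 1 of the 8, was itself sorted on, so its call is no separate evidence. With the block 7 were higher and 1 lower. Besides Fn1, Ccr2, Ly6c1, Chil3 and the calcium-binding S100a4, they were Clec4e, Plac8 and Hp. Clec4e, the lectin Mincle that senses mycobacterial glycolipid and a protein of dead cells, had levels from -2.59 to -1.04 and was at least 3.31-fold higher (adjusted p = 4.71e-05). Plac8, a small protein of blood leukocytes, had levels of 0.53, 1.23, 2.78 and -0.85 against -2.60, -2.15, -1.61 and -2.14 (3.04 ± 0.56, adjusted p = 0.0122, up to 0.0831 in fits of these 8 arrays alone). Hp, haptoglobin, had levels of 0.35, 0.86, 1.81 and -1.12 against -2.40, -1.60, -1.76 and -1.20, so that on slide 4 the difference was 0.08 (2.21 ± 0.45, adjusted p = 0.0222, up to 0.136 over the alternatives). In Plac8, Hp and Chil3 alike CCR2+ replicate 3 was highest and replicate 4 lowest. F13a1, the factor XIII subunit that cross-links fibrin, was on this list and lower, with levels of 2.51, 2.85, 2.98 and 2.52 against 4.21, 4.14, 4.51 and 3.70 (-1.43 ± 0.20, adjusted p = 0.00176).

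Some S100, annexin and galectin genes rose by a small step. Most of these encode calcium-binding proteins that shape membranes and the actin skeleton, some of them released as alarm signals. Of 11 tested 6 were higher and 0 lower, with a median of 1.06, which ran from 0.89 to 1.16 by slide. Lgals3, galectin-3, had levels of 3.13, 3.27, 3.53 and 2.92 against 1.97, 1.89, 2.16 and 1.53 (1.32 ± 0.18, adjusted p = 0.00159). Anxa1, annexin A1, differed by 1.48 ± 0.25 (adjusted p = 0.00721). S100a4 (1.30 ± 0.26), S100a6 (1.30 ± 0.26), Anxa2 (1.13 ± 0.25) and S100a11 (1.06 ± 0.24) had adjusted p from 0.0207 to 0.0417, and each lost its call without some of the arrays, with highest values of 0.0922, 0.0777, 0.127 and 0.165. With the block their adjusted p ran from 0.00026 to 0.00185. The other 5 did not pass, among them S100a10 (0.38 ± 0.24), Lgals1 (-0.11 ± 0.18), S100a1 (-0.17 ± 0.19) and S100a9 (-0.70 ± 1.30). Tmsb10, a thymosin that binds actin monomers, named after its values were seen, rose by 1.42 ± 0.19 (adjusted p = 0.00134).

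**Figure D3:**
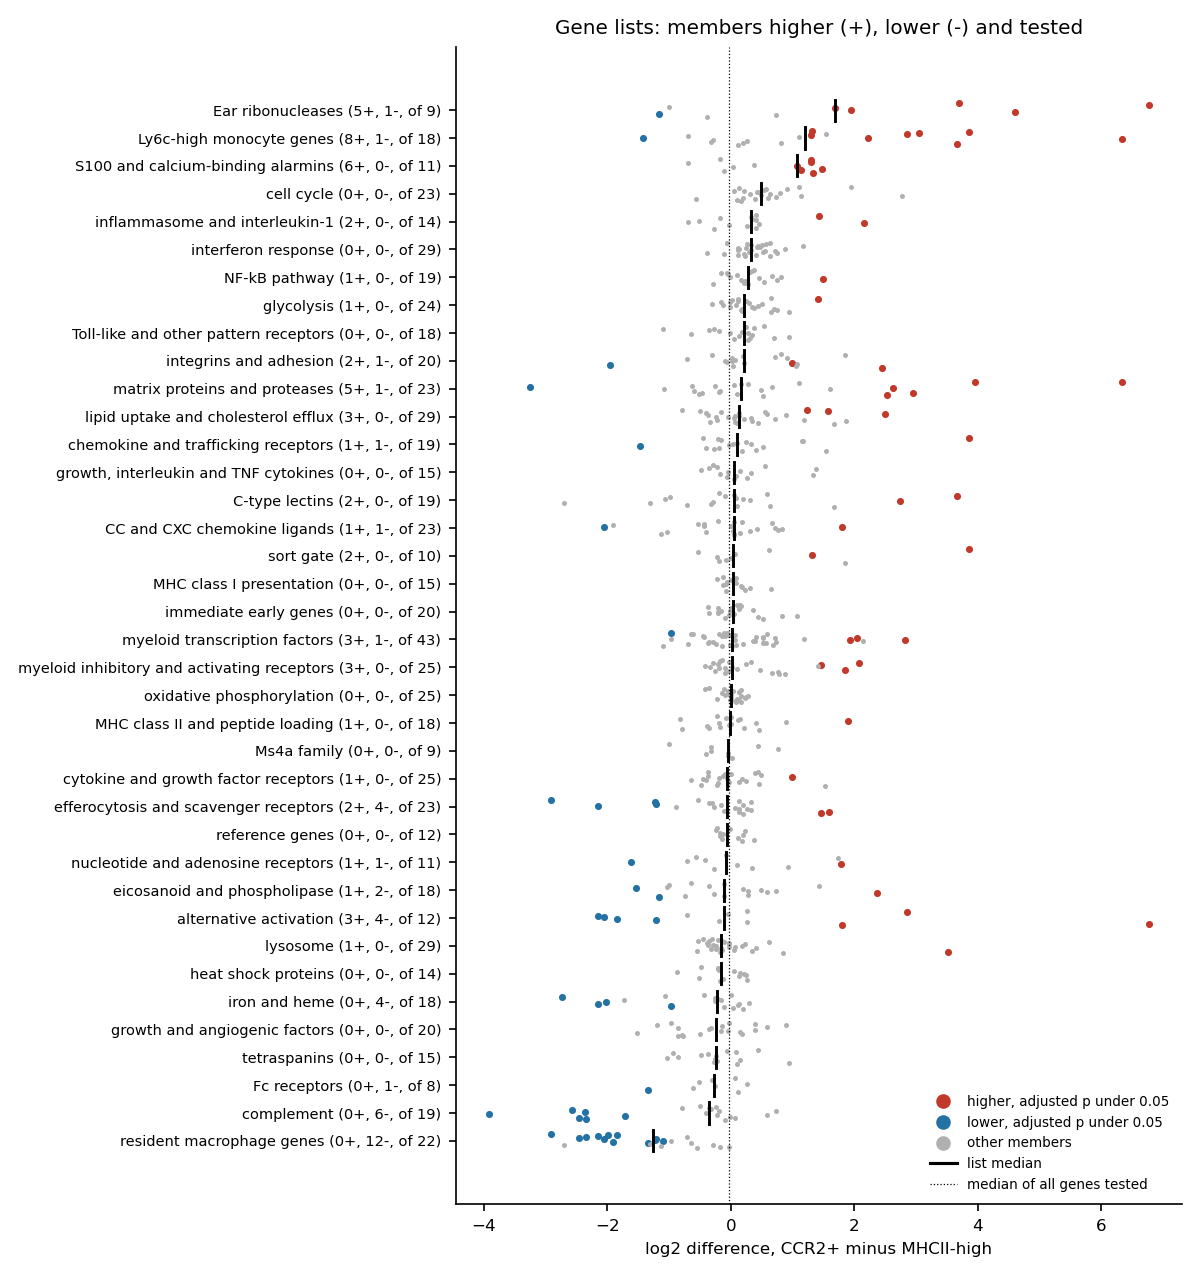
Fitted log2 difference, CCR2+ minus MHCII-high, of every tested member of 38 gene lists. Red points were higher and blue points lower at an adjusted p under 0.05, grey points are the other members, thick bars are list medians and the dotted line is the median of all genes tested (-0.03). Lists are ordered by their median, from 1.69 for the list of Ear and other ribonucleases to -1.27 for resident macrophage genes. Lists share members.

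Chemokine ligands had calls in both directions and the cytokines tested had none. Of 23 chemokine genes 1 was higher and 1 lower (8.70%, against 1.25% of all genes tested). Ccl17, which draws T cells through CCR4, had levels of 0.78, 0.06, -0.63 and -1.33 against -2.36, -1.48, -2.61 and -1.89 (1.80 ± 0.38, adjusted p = 0.0265). The groups stood apart, but the slide differences ran from 0.55 to 3.14 and adjusted p reached 0.132 with an array left out. Ccl24, eotaxin-2, was lower at -1.05, 0.38, -0.15 and 0.34 against 1.80, 2.09, 2.04 and 1.81 (-2.06 ± 0.29, adjusted p = 0.00174). Ccl2, the ligand of CCR2, differed by -0.21 ± 0.20 (adjusted p = 0.882). None of 15 interleukin, TNF and growth cytokines passed the threshold in limma, with or without the block, Tnf (-0.29 ± 0.16, adjusted p = 0.621) among them. With 1.25% of all genes called, a list of 15 may hold no call by its size alone. In the inflammasome list Il1b itself was at 0.40 ± 0.21 (adjusted p = 0.58), while Il1rn, the antagonist of its receptor, rose by 1.43 ± 0.29 (adjusted p = 0.0212, up to 0.0836 with an array left out). Mefv, which encodes the sensor pyrin, rose by 2.16 ± 0.28 (adjusted p = 0.0011) with levels of 1.52, 1.31, 2.26 and 0.91 against -0.98, -0.44, -0.51 and -0.69. These were the 2 called of 14.

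Of 20 growth and angiogenic genes, which include the co-receptors Nrp1 and Nrp2, none was called, and the median was -0.24. With the slide as a block 4 were lower, Igf1 (-0.97 ± 0.28, adjusted p = 0.135 without and 0.00399 with the block), Bmp2 (-1.52 ± 0.37, 0.0685 and 0.0136), Ang (-0.79 ± 0.26, 0.22 and 0.0353) and Nrp2 (-0.78 ± 0.27, 0.257 and 0.0248). Igf1, insulin-like growth factor 1, is a growth signal of resident macrophages for heart muscle. Ccn1, a matricellular protein that signals through integrins, was among the 15 largest falls, with levels of -1.36, -1.01, -0.68 and -0.74 against 2.20, 1.34, 1.90 and 1.74 (-2.74 ± 0.47, adjusted p = 0.00757).

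Receptors for movement and adhesion differed in both directions. S1pr1, the receptor by which cells follow sphingosine 1-phosphate, was lower by -1.48 ± 0.30 (adjusted p = 0.0211). Together with Ccr2, on which the cells were sorted, it made up the 2 called of 19 trafficking receptors. Cx3cr1, the fractalkine receptor of monocytes and macrophages, had levels from 3.66 to 4.51 and from 3.59 to 4.66 (-0.03 ± 0.35). Of 20 adhesion genes, Emb (embigin, a partner of monocarboxylate transporters that binds matrix) rose by 2.44 ± 0.32 (adjusted p = 0.0011) and the integrin chain Itgb7 by 0.99 ± 0.18 (adjusted p = 0.00992, up to 0.089 in fits of these 8 arrays alone). Vcam1, the ligand of the integrin VLA-4, fell, with levels of -0.06, -1.59, -0.94 and -1.60 against 1.48, 0.51, 1.16 and 0.48 (-1.96 ± 0.39, adjusted p = 0.0211). The Vcam1 and S1pr1 calls each ended without some of the arrays, with highest adjusted p of 0.0862 and 0.0902. With the block Itga4 (0.72 ± 0.27, adjusted p = 0.316 without and 0.0269 with it), Itga5 (0.91 ± 0.30, 0.224 and 0.0341), Icam2 (1.07 ± 0.26, 0.0719 and 0.0485) and Itgax were called too, 6 higher and 1 lower.

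Nucleotide receptors split, as P2ry14, which senses UDP-glucose, was higher (1.79 ± 0.40, adjusted p = 0.04, up to 0.149) and P2ry13, which senses ADP, was lower (-1.61 ± 0.28, adjusted p = 0.00721) among 11 tested. P2ry13 had levels of 0.34, -0.09, -0.17 and -0.07 against 2.13, 1.48, 1.47 and 1.39. Paired inhibitory and activating receptors of myeloid cells had 3 higher of 25. Sirpb1a, an activating relative of SIRPα with near-identical copies, rose by 2.07 ± 0.27 (adjusted p = 0.00112), Treml4, a receptor for dead cells, by 1.85 ± 0.35 (adjusted p = 0.0159, up to 0.0598), and Cd300lf has been given above. Pdcd1, the inhibitory receptor PD-1, was not well above background on any MHCII-high array and lay at -2.29, -1.73, -2.69 and -2.52 in CCR2+ macrophages, at least 2.49-fold higher (adjusted p = 5.23e-05). In lectins Clec4e and Cd209a, the mouse DC-SIGN, were the 2 called of 19, and Cd209a (2.74 ± 0.62, adjusted p = 0.0434) lost its call without any 1 of the 8 arrays (up to 0.156). With the block the galactose lectin Clec10a was called lower (-1.07 ± 0.25, adjusted p = 0.0576 without and 0.000593 with it). Of 8 genes of Fc receptors and their signalling, Syk and Fcer1g included, 1 was called. It was Fcgrt, which recycles antibody and albumin (-1.34 ± 0.26, adjusted p = 0.0194, up to 0.126), and with the block Fcrls was lower too (-0.62 ± 0.19, 0.169 and 0.0408). Tnfrsf17, the receptor BCMA best known from plasma cells, was 10.1-fold lower, with levels of -5.93, -2.83, -4.35 and -3.72 against -0.28, -0.61, -1.79 and -0.79 (-3.34 ± 0.56, adjusted p = 0.00661, or 0.0677 with the block on these 8 arrays alone). Of 2 receptors coupled to G proteins that were named after their values were seen, Gpr35 rose by 2.22 ± 0.34 (adjusted p = 0.00346) and Gpr132 by 1.08 ± 0.22 (0.0254, up to 0.126).

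Iron handling was lower in CCR2+ macrophages where it was called. Slc40a1, ferroportin, the only known exporter of iron, was not above background on any CCR2+ array and lay at -3.27, -2.54, -3.10 and -2.91 in MHCII-high macrophages, where 3 of 4 arrays measured it, at least 1.85-fold lower (adjusted p = 8.37e-05, but 0.159 with normexp background correction). Cp, the ferroxidase ceruloplasmin that loads iron onto transferrin, had levels of -0.28, -0.67, -0.60 and -0.31 against 1.69, 1.71, 1.43 and 1.41 (-2.02 ± 0.20, adjusted p = 8.43e-05). Cd163 and Spic, the factor that red pulp macrophages need to recycle iron (-0.97 ± 0.21, adjusted p = 0.0322, up to 0.12), were the other called members. Of 18 tested 4 were lower and 0 higher, and the median was -0.23. With the block Blvrb, a biliverdin reductase (-1.07 ± 0.27, adjusted p = 0.0842 without and 0.00615 with it), and the transferrin receptor Tfrc (0.111 and 0.0129, not above background in CCR2+ macrophages) made 6. Slc46a1, which takes up folate and heme (-1.20 ± 0.22, adjusted p = 0.012, or 0.0639 with median scaling), and the erythropoietin receptor Epor (-1.66 ± 0.30, adjusted p = 0.0107) were lower too and were named after their values were seen.

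Lipid genes differed upward where they were called, 3 of 29, with a median of 0.14. Fabp5, a fatty acid carrier, had levels of 0.33, 1.55, 0.86 and -0.56 against -1.47, -2.29, -1.75 and -2.29 (2.49 ± 0.37, 5.64-fold, adjusted p = 0.00231, or 0.0524 with the block on these 8 arrays alone). Apoc2, the activator of lipoprotein lipase, rose by 1.57 ± 0.22 (adjusted p = 0.00159), and Abcg1, which exports cholesterol to HDL, by 1.23 ± 0.26 (adjusted p = 0.0258, up to 0.0916). With the block 6 were higher and 1 lower. These added the oxysterol receptor LXRα gene Nr1h3 (0.71 ± 0.18, adjusted p = 0.0819 without and 0.0198 with it), Pparg (1.19 ± 0.35, 0.157 and 0.00621), Gpnmb (0.0649 and 0.0138, not above background in MHCII-high macrophages), and Apoe on the lower side (-0.50 ± 0.17, 0.244 and 0.0421).

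Eicosanoids, the lipid mediators made from arachidonic acid, had 1 gene higher and 2 lower of 18. Ltc4s, which makes leukotriene C4, had levels of 2.54, 2.31, 2.27 and 2.53 against 4.4, 4.02, 3.88 and 3.47 (-1.53 ± 0.23, adjusted p = 0.00275). Hpgd, which breaks down prostaglandins, fell by 1.17 on the log2 scale (adjusted p = 0.00773), and Ptgir, the prostacyclin receptor, was at least 1.64-fold higher (adjusted p = 0.000715). With the block Hpgds, which makes prostaglandin D2, was lower as well (-1.04 ± 0.47, adjusted p = 0.466 without and 0.0055 with it). Hpgd lost its call with median scaling and with the mean of its probes (up to 0.174). Pla2g2d, a secreted phospholipase A2 known for resolving lipid mediators in dendritic cells and macrophages, was not on that list and stood among the 15 largest falls, with levels of 0.12, 1.08, 0.69 and -0.04 against 3.19, 3.76, 3.88 and 3.22 (-3.05 ± 0.43, 8.29-fold, adjusted p = 0.00176).

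Antigen presentation had calls in single genes. Of 18 class II and peptide loading genes H2-DMb2, a chain of the peptide exchange factor H2-M, was called (1.90 ± 0.39, adjusted p = 0.0243, up to 0.0944) and the median was -0.01, and of 15 class I genes none was. Napsa, an aspartic protease of the lysosome, was the 1 called of 29 lysosomal genes, with levels of 1.00, 1.00, 1.66 and 0.02 against -2.41, -2.44, -2.0 and -3.53 (3.52 ± 0.53, 11.4-fold, adjusted p = 0.0029). With the block the protease Ctsc was called lower (-0.54 ± 0.24, adjusted p = 0.454 without and 0.0421 with it). None of 25 genes of oxidative phosphorylation or of 14 heat shock genes was called in limma, with or without the block. In glycolysis the hexose transporter Slc2a6 was the 1 called of 24 (1.42 ± 0.21, adjusted p = 0.0025). With the block the lactate exporter Slc16a3 (0.94 ± 0.23, adjusted p = 0.0665 without and 0.00338 with it), Pkm (0.74 ± 0.25, 0.237 and 0.013) and Pgam1 made 4.

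Among 43 myeloid transcription factors 3 were higher and 1 lower, with a median of 0.02. Bhlhe40, a repressor that restrains Il10 and is induced by stimulation, had levels of 1.22, 0.46, 0.69 and -0.45 against -2.20, -2.30, -2.63 and -2.24 (2.82 ± 0.37, 7.08-fold, adjusted p = 0.00112). Nfil3, a leucine zipper factor, had levels of 0.33, 0.03, 0.50 and -0.54 against -2.09, -1.62, -1.35 and -2.36 (1.93 ± 0.31, adjusted p = 0.00478). The orphan nuclear receptor Nr4a2 was higher by 2.04 ± 0.46 (adjusted p = 0.0441, up to 0.151, with a second probe at 0.49), and Spic was the lower one. With the block 6 were higher and 2 lower, the added ones being Id2 (2.14 ± 0.56, adjusted p = 0.0934 without and 0.032 with it), Nr1h3, Pparg and, on the lower side, Mef2c (-0.70 ± 0.23, 0.24 and 0.0194). Of 19 NF-κB pathway genes Tnip3, an inhibitor of the pathway, was higher (1.49 ± 0.27, adjusted p = 0.0124), and with the block Nfkbie was called as well (0.67 ± 0.23, 0.244 and 0.0346). Map4k1, a kinase of blood cells that damps antigen receptor signals, rose by 3.02 ± 0.40 (adjusted p = 0.00114), and Cish, an inhibitor of cytokine signals through STAT5, was at least 2.11-fold higher (adjusted p = 0.000931, but 0.132 with normexp background correction). Kcnn4, a calcium-gated potassium channel, had levels of 2.07, 1.99, 2.08 and 1.80 against -1.09, -0.88, -0.85 and -0.42 (2.79 ± 0.26, adjusted p = 4.71e-05). Cish and Kcnn4 were named after their values were seen.

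Cell cycle and interferon lists leaned upward without a call. Of 23 cell cycle genes 22 had a positive difference, against 10181 of 22040 of all genes, and their median was 0.49, but none passed the threshold. Mki67, the proliferation antigen Ki-67, had levels of 2.01, 0.97, 0.95 and 1.39 against 0.73, -0.12, 0.12 and 0.16 (1.11 ± 0.42, adjusted p = 0.324, or 0.0233 with the block). Rrm2, a subunit of the enzyme that makes DNA building blocks (2.77 ± 0.75, 0.113 and 0.034), and Ccnb2, a cyclin of mitosis (0.90 ± 0.33, 0.297 and 0.0205), were also called with the block. Outside the list Cdca3, which triggers entry into mitosis, was at least 3.04-fold higher (adjusted p = 0.0029). Other cell cycle genes were named after their values were seen: the mitotic kinesin Kif22 (2.11 ± 0.36, adjusted p = 0.00718), Pimreg (2.21 ± 0.35, 0.00367) and the condensin subunit Smc2 (1.21 ± 0.22, 0.0124). The E2F family members E2f2 (1.93 ± 0.39, 0.0207) and E2f8 (2.18 ± 0.51, 0.0493) were named in the same way. Each of these 5 lost its call under some alternative, with the highest adjusted p between 0.0766 and 0.246. Of 29 interferon response genes 25 had a positive difference, with a median of 0.33 and 0 called, and the transcription factor Stat2 (0.57 ± 0.20, 0.274 and 0.0414) was called with the block.

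The called genes were also read in the MHCII-low macrophages and the blood monocytes, as levels only, since the 4 populations share 1 fit. Over the 126 named genes that were higher, the median level was 0.48 in CCR2+, -1.84 in those high and -1.87 in those low for MHCII, and 1.01 in monocytes. Over the 118 named genes that were lower it was -0.92, 0.68, 0.89 and -2.77. Of the 126, 110 were well above background on all 4 monocyte arrays and 13 on none. Spp1, Mmp12, Pdcd1 and Cdca3 were among those 13. Of the 118, 54 were well above background on all 4 monocyte arrays and 44 on none. The share over all genes tested was not counted, and genes were tested only if well above background on some arrays. The 75th percentile ran from 819 to 996 on monocyte arrays and from 941 to 1670 on macrophage arrays. The same signal therefore mostly gives a higher level in monocytes. Spp1 had a mean level of 1.34 ± 0.65 (SD, n = 4) in CCR2+ macrophages and was not above background in monocytes. Mmp12 fell in steps from 3.77 ± 0.45 in CCR2+ to 1.15 ± 0.22 and -0.61 ± 0.51 in macrophages high and low for MHCII, with no overlap of these SDs. Adam8 was at 0.57 ± 0.60 in CCR2+ macrophages and at -2.38 ± 0.96, -2.0 ± 1.03 and -1.76 ± 0.77 in MHCII-high macrophages, MHCII-low macrophages and monocytes, which do not differ beyond their spread. Kcnn4 was likewise at 1.98 ± 0.13 against -0.81 ± 0.28, -1.15 ± 0.55 and -1.23 ± 0.34. Ear2, Fn1, Plac8 and Napsa had their highest mean level in monocytes, at 3.63, 4.54, 6.36 and 4.63. Cd163 lay at 1.89 ± 0.35 in CCR2+ macrophages, between monocytes at -1.77 ± 0.16 and MHCII-high macrophages at 4.05 ± 0.26, and Folr2 at 2.36 ± 0.19 between -3.31 ± 0.84 and 4.2 ± 0.27. Slc40a1 was not above background in either CCR2+ macrophages or monocytes.

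**Figure D4:**
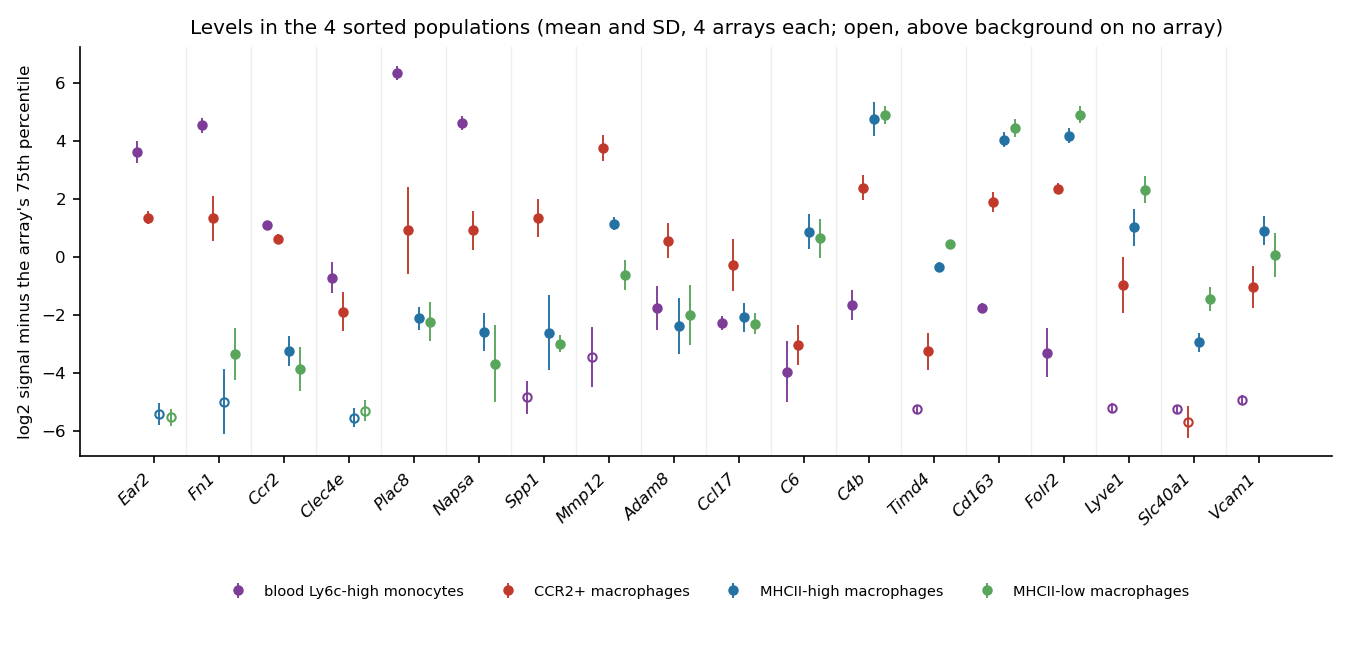
Mean level with its SD (log2 signal minus the array's 75th percentile, 4 arrays per population) of 18 genes in monocytes (purple), CCR2+ (red), MHCII-high (blue) and MHCII-low (green) macrophages. Open points mark a population in which no array was well above background. Genes such as Ear2 and Plac8 step down from monocytes to the CCR2-negative macrophages, Cd163 and Folr2 step up, and Spp1, Mmp12, Adam8 and Ccl17 have their highest mean in CCR2+ macrophages.

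Markers of macrophages and of 11 other kinds of cell were summed on each array, in units of the 75th percentile of the array's signal. Of these 12 lists 2 had sums that did not overlap (for each the exact permutation p was 0.0286, the smallest possible, and 0.171 adjusted over the 12 lists). The eosinophil sum was 6.70 to 8.73 in CCR2+ and 0.83 to 1.89 in MHCII-high macrophages, of 7 members tested. Its called members were Ear1 and Ear2, which make up most of the sum in CCR2+ macrophages. Both were already given above as leading genes, so this sum and its p are no separate evidence on eosinophil markers. Siglecf was at 1.56 ± 0.43 (adjusted p = 0.121), and the other 4 tested were negative without a call: Epx at -0.62 ± 0.75, Prg2 at -0.63 ± 0.56, Il5ra at -0.24 ± 0.42 and Gata1 at -0.07 ± 0.23. The list's median was -0.07, and Ccr3 and Ear6 were above background on no array of the 8. The platelet and red cell sum was lower in CCR2+ macrophages, 14.03 to 18.3 against 29.1 to 41.7, with 0 of 8 members called, among them Pf4 (-1.13 ± 0.33, adjusted p = 0.157) and the haemoglobin chain Hba-a1 (adjusted p = 0.432). Pf4 is also on the list of resident macrophage genes, and a linear sum follows its brightest members. The median of these 8 was -0.18, and 3 were positive. The dendritic cell sum overlapped, 37.8 to 48.1 against 37.7 to 50.6, with 4 higher of 13 (Cd24a, Cd209a, Ccl17 and Dpp4, the last with an adjusted p of up to 0.0581), while Xcr1 and Ccl22 were above background on no array of the 8. Kmo (-0.55 ± 0.26), Itgae (-0.41 ± 0.38) and Zbtb46 (-0.36 ± 0.27) were negative without a call, and Fscn1 (-1.05 ± 0.35) was called lower with the block (adjusted p = 0.234 without and 0.0353 with it). Ccr7 (1.18), Batf3 (0.52) and Flt3 (0.49) were positive without a call. Of the 13 dendritic cell markers 8 had a positive difference, and their median was 0.49. The cardiomyocyte sum ran from 26.1 to 40.5 against 34.4 to 44.99 with 0 of 15 called, and the T and NK cell sum from 8.46 to 15.1 against 14.4 to 16.2, with Cd4, which macrophages can also carry, lower (adjusted p = 0.0212, up to 0.143, with a second probe at -0.19). Among neutrophil markers, summed to 35.5 to 45.9 against 35.04 to 53.5, Mmp9 was the 1 called of 11, and Ly6g was at 1.17 ± 0.36 (adjusted p = 0.189). What part any of these cells had in the gene differences was not tested. All arrays of a population had the same position on their slides, so position and population cannot be told apart.

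**Figure D5:**
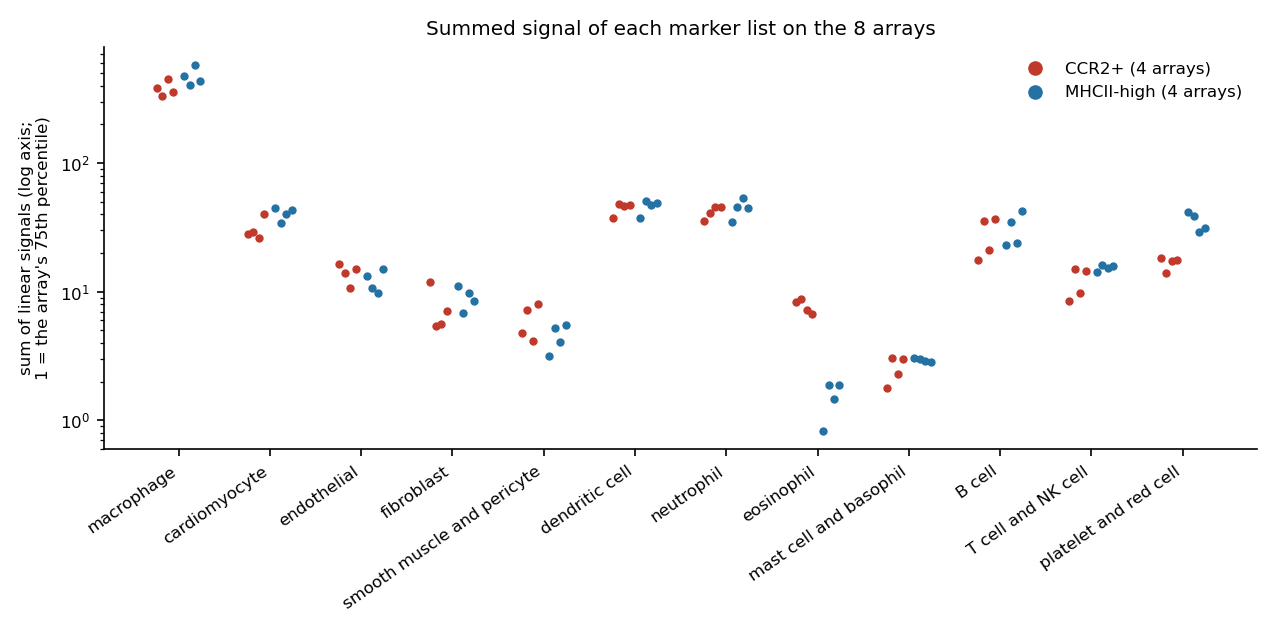
Summed linear signal of the tested members of 12 cell type marker lists on each array, on a log axis where 1 is the signal of the array's 75th percentile. Red points are the 4 CCR2+ arrays and blue points the 4 MHCII-high arrays. The eosinophil sums, in CCR2+ macrophages mostly Ear1 and Ear2, lie higher there without overlap. The platelet and red cell sums lie lower in CCR2+ macrophages without overlap, and the macrophage sums run from 333 to 577. Sums of different lists rest on different probes and numbers of genes and are not compared.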

How the data were processed

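Total RNA of the 16 sorted samples, 1 ng each, was labelled with Cy5 and hybridised to 1-colour Agilent arrays, per the labels' protocols. The deposited intensity values were made with Agilent Feature Extraction 11.5.1.1, which per the file headers subtracted background and detrended each array without scaling between arrays. In 15 files the column headings are shifted, so columns were found by their content. The authors also deposited a table of log2 values whose method is not given in the sources used here (Partek is named in the submitters' processing notes). Each of its 16 columns matched best an array with another label, 12 of them an array of another group, so it was not used for results.

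Spots marked as outliers were left out, spots of a probe were averaged, and the log2 intensity was set against the array's 75th percentile. Probes well above background on at least 4 of 16 arrays were kept (27643), the brightest per gene was used, and 22040 genes were fitted with limma 3.58.1 in R 4.3.3 over all 16 arrays with 12 residual degrees of freedom. P-values were adjusted by Benjamini-Hochberg and called under 0.05. The fitting code was tested on simulated data. Levels rest on 1 array per sample, and the number of arrays limits the precision. Same-numbered arrays shared a slide, per the file headers, and deviated together (correlations 0.57, 0.43, 0.27 and 0.52). Pairs with different numbers ran from -0.498 to 0.487, most of them negative, although a second pair reached 0.404. The main fit has no term for the slide. The slide as a block is given beside lists and genes described whose calls it changes.

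Named genes were those of the gate, the 15 largest called differences each way, up to 6 called and 2 uncalled members of each list, and further genes added after their values were seen, among them Ccl2, Tnf, Il1b, Cx3cr1, Adgre1, F13a1, Mki67, Pkm, Stat2, Mef2c and the block-only calls of Pparg, Apoe, Ang, Nrp2, Itga4, Itga5 and Ccnb2. The members and lists were chosen with earlier results of these data known. Alternatives covered scaling, background correction, filter, probe choice, model, block and each array left out. All arrays were scanned on 1 day, so scan day was no alternative. Promoter windows are RefSeq's, on GRCm38.p6, matched by symbol for 13004 of 17134 genes with a symbol. Some genes are not reported here.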

Additional observations from a re-analysis of the deposited data

Results flagged for a closer look

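In 10 of 232 groups of 4 arrays, over the called genes named, 1 array lay far from the other 3, by Dixon's critical value for its gap as a share of the group's range. Chance alone gives about 1 in 20. Among MHCII-high arrays, replicate 1 was highest for C6 (gap 0.866 of the range, level 1.77) and P2ry13 (0.883, level 2.13). Replicate 3 was lowest for Chil3 (0.834, level -3.79) and Maoa, a monoamine oxidase (0.924, level -2.65), and highest for Clec4e (0.971, level -5.05), where none of the 4 arrays was well above background. Replicate 4 was lowest for Cd24a (0.921, level -5.92), also below background, and Rgs7bp (0.873, level -4.26). Among CCR2+ arrays, replicate 1 was highest for E2f8 (0.890, level -1.15), replicate 3 was highest for Itgb7 (0.947, level 2.37), and replicate 4 was lowest for Ear2 (0.852, level 1.01), still above every MHCII-high array.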

How the results depend on the processing

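The 276 calls became 552 with the slide as a replicate block, 173 with median scaling and 956 with array weights. Leaving out 1 array gave 155 to 222 calls. The share of calls that were higher was 50% as reported, 59.5% with median scaling, 60.4% without MHCII-high replicate 1 and 39.8% with the block on the 8 arrays alone. No named gene's difference changed sign with a call. Of 116 called named genes, 72 kept the call whichever array was left out and 54 under every alternative. The block ended the calls of Chil3 and Ednrb (adjusted p = 0.059 and 0.0609, limma) and no other named call when all 16 arrays were fitted, and 35 of 120 uncalled named genes passed with it. With only the 8 compared arrays, 34 of the 116 calls ended without the block and 28 with it. The causes of these shifts were not tested. Signal over background limits the dim genes: 26 of the higher and 22 of the lower calls have a dim group, and normexp background correction ended 18 of the 116 calls.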
